A study of Drosophila melanogaster with 2 samples.

Results

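The genes described here are 10 regulators of the Drosophila cell cycle, CycE, CycA, CycB, CycD, stg, dap, E2f1, Rbf, fzr and trbl, taken by name from the 13945 protein-coding genes on the chromosome arms in Ensembl release 115. All 10 were found in that annotation under these symbols. They were examined in a ChIP-seq map of the homeodomain protein bsh (brain-specific homeobox). The chromatin came from whole embryos of pooled sex, 0 to 24 h old, of a stable transgenic line in which GFP is joined to the C-terminal end of bsh, and it was precipitated with an antibody to GFP after sonication to 200 to 800 bp. The labels name no treatment. There was 1 group with 2 biological replicates. A map from whole embryos of this age range averages over all cells and stages, and the control that the labels name as possible was not analysed here, so how much signal these genes would show without the fusion protein was not tested.

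The cell cycle is driven by cyclins, the regulatory subunits of cyclin-dependent kinases (Cdks). In Drosophila, CycD with Cdk4 promotes growth and entry into the cycle, CycE with Cdk2 starts S phase, and CycA and CycB with Cdk1 bring about mitosis. The phosphatase encoded by stg (string, the Cdc25 homologue) removes inhibitory phosphate from Cdk1 and sets the time of the embryonic divisions, and trbl (tribbles) holds stg back by promoting its degradation. E2f1 activates genes of S phase, Rbf (the retinoblastoma homologue) represses them with E2f proteins, dap (dacapo) inhibits CycE with Cdk2 so that cells leave the cycle, and fzr (fizzy-related) directs the anaphase-promoting complex (APC/C) to mitotic cyclins when divisions end.

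Of the 10 genes, 6 were bound, that is, the gene, or the 2 kb on either side of it, held a summit of the IDR list (the regions that passed a limit on the irreproducible discovery rate, which scores the likeness of ranks across replicates). They were CycE, CycB, stg, E2f1, fzr and trbl. Of all genes 24.9% were bound by the same rule. The members were chosen with earlier results of these data known. The 6 genes held 25 summits, 12 of them at E2f1, 4 each at stg and trbl, 2 each at CycE and fzr, and 1 at CycB. CycA, CycD, dap and Rbf had no summit of the IDR list, though each had regions in the longer relaxed lists, which also hold background. With 1 group and no contrast there was nothing to test across samples, so every share over all genes or regions is given as a description beside the members' counts, with no p-value.

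**Figure D1:**
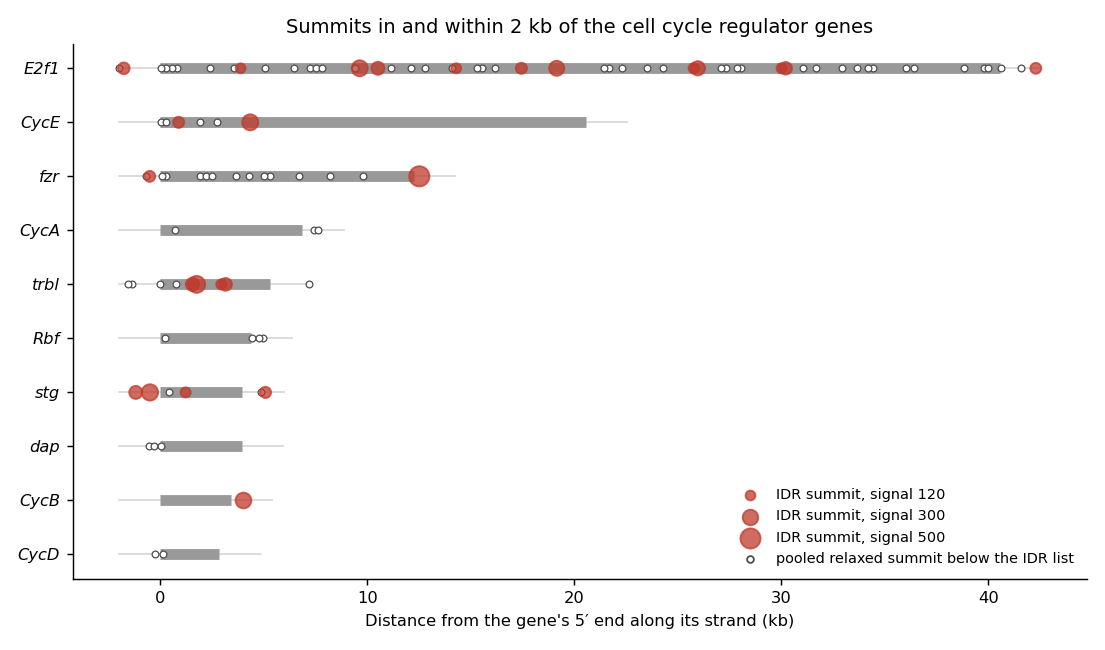
Summits at each gene by distance in kb from its 5′ end along its own strand; thick bars are gene bodies, thin lines the 2 kb on either side, red discs IDR summits with an area in proportion to the pooled signal, and open circles weaker summits of the pooled relaxed list. At E2f1 the red discs inside the gene are spread over its introns and stop short of its 3′ part, at trbl and CycE all lie inside the gene, and the disc of CycB and the strongest of fzr lie beyond the 3′ end.

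The strongest window at 4 of the bound genes is printed here because these windows carry the highest signal at the members and lie in different places relative to them. Each holds 100 bases on either side of the summit, in dm6 coordinates on the plus strand, read from the RefSeq copy of the assembly. They lie at chrX:4666917-4667117 (fzr, past its 3′ end), chr3L:20399743-20399943 (trbl, intron), chr3R:29256193-29256393 (stg, upstream) and chr2L:15743697-15743897 (CycE, intron). Capitals mark any of 8 words that were searched on both strands, which are named further on.
fzr: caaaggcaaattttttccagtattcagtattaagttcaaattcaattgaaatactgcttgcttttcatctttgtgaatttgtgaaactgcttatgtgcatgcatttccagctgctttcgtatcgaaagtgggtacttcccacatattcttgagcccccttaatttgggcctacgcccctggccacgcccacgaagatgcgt
trbl: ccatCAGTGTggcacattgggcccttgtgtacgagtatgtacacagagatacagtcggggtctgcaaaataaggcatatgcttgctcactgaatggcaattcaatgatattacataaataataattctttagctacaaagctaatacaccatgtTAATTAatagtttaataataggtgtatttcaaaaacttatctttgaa
stg: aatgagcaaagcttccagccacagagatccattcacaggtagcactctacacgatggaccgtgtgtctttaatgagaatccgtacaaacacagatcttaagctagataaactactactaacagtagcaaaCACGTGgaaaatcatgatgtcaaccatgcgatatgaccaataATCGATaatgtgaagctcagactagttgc
CycE: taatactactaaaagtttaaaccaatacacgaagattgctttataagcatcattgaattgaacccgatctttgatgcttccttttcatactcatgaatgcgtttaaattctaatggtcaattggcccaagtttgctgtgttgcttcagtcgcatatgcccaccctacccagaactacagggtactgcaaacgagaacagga
The trbl window holds ACACTG, on the minus strand, and the homeodomain word TAATTA. The stg window holds CACGTG, the E-box bound by the Myc and Max proteins, then ATCGAT, the core of the DNA replication-related element. The fzr and CycE windows hold none of the 8 words.

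Among the cyclin genes, CycE and CycB had strong regions and CycA and CycD did not. CycE (2L 15727581 to 15748150, minus strand) had its strongest region at 15743667 to 15743883, in an intron 2813 bp from the nearest CycE transcription start site (TSS). Its pooled signal was 318.7 with rank 826. Signal is the authors' own value, on a scale that no source used here gives, so ranks within a list are used to set lists side by side. The same region had signal 204.9 and rank 661 in replicate 1 and signal 116.4 and rank 1243 in replicate 2, so it stood high in both. The second CycE summit, at 15747255 in an intron 645 bp from a CycE TSS, had pooled signal 157.6 and rank 2856. It ranked 1831 in replicate 1 and 9308 in replicate 2, which places it among the 4447 strongest regions, the length of the IDR list, in replicate 1 alone.

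CycB (2R 22803521 to 22806948, minus strand) had 1 region, at 22802859 to 22803063, with its summit 592 bp beyond the 3′ end of the gene. Its pooled signal was 309.2 with rank 872, and its rank was 891 in replicate 1 (signal 175.8) and 969 in replicate 2 (signal 132.1). The ranks of the replicates were close to each other. The summit was intergenic, 3374 bp from the nearest TSS, which was that of CycB, and it also lay within 2 kb of blw, which encodes a subunit of the mitochondrial ATP synthase. This was also the only region of the pooled relaxed list at CycB.

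CycA (3L 11826719 to 11833578) and CycD (X 15906822 to 15909676) were the weakest members in the pooled list; in each replicate the best region of Rbf ranked below that of CycA. The strongest pooled region at CycA had signal 43.4 and rank 18436 of 30000 and lay past its 3′ end, 413 bp from the TSS of CG32095. The strongest region differed between the replicates: in replicate 1 it was in a coding exon 1731 bp from the CycA TSS (rank 13573), and in replicate 2 at 11833116 to 11833531, 254 bp from that TSS (signal 47.5, rank 6180). At CycD the strongest pooled region lay 129 bp from the TSS with signal 39.1 and rank 20735, and the best ranks were 18495 and 16819 in replicates 1 and 2. Of all genes, 53.8% had a pooled region at least as strong as the best at CycA and 55.7% one at least as strong as the best at CycD. The IDR summit nearest to CycA was 3813 bp away and that nearest to CycD 14401 bp away.

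The mitotic activator stg and its antagonist trbl each had 4 summits, in different arrangements. At stg (3R 29251826 to 29255800, minus strand) the strongest region, 29256188 to 29256451, had its summit 493 bp upstream of the TSS, with pooled signal 330.9 and rank 759. It ranked 705 in replicate 1 (signal 198.9) and 1014 in replicate 2 (signal 129.1). This was the only summit of the 25 within 500 bp of a TSS of the member itself, the distance taken here as a promoter. It was also nearer to a neighbour, at 192 bp from the TSS of CG45544. A further upstream summit 1177 bp from the stg TSS had pooled signal 210.8 and ranks of 1742 and 1800 in the replicates, and it lay 492 bp from the TSS of CG45544. A summit 1115 bp beyond the 3′ end, 260 bp from the TSS of SP1029, had pooled signal 157.2 and ranks of 3511 and 1724. The fourth, in an intron 759 bp from a stg TSS, had pooled signal 127.3 and ranks of 2660 and 9595, so it was among the strongest 4447 in replicate 1 alone.

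At trbl (3L 20396288 to 20401609, minus strand) all 4 summits were in an intron, and no other protein-coding gene lay within 2 kb. They formed 2 pairs of overlapping regions. In the pair nearer the TSS, summits at 20399843 and 20400048 had pooled signal 355.1 and 216.8, and the strongest region overlapping both ranked 672 in replicate 1 (signal 203.2) and 768 in replicate 2 (signal 146.1). In the other pair, summits at 20398450 and 20398653 had pooled signal 203.1 and 129.0, and the strongest region overlapping both ranked 2069 in replicate 1 and 1761 in replicate 2. Merging overlapping regions thus leaves 2 regions at trbl, both high in each replicate. A further trbl region fell just outside the IDR list, with pooled signal 114.9 and rank 4742 and its summit 12 bp upstream of the TSS. The weakest member just inside, at E2f1, had signal 119.7 and rank 4437, and the lowest signal in the IDR list was 119.6. The trbl region just outside overlapped regions that ranked at best 6833 in replicate 1 and 3348 in replicate 2.

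Of the inhibitors that act as divisions end, fzr had the strongest region of any member and dap fell just below the IDR list. The fzr gene (X 4667290 to 4679537, minus strand) had a region at 4666851 to 4667157 with pooled signal 504.0 and rank 289. It ranked 313 in replicate 1 (signal 282.1) and 298 in replicate 2 (signal 220.5), the nearest pair of ranks among the strongest regions of the 6 genes. The summit was 273 bp beyond the 3′ end of fzr and 317 bp from the TSS of CG3009, a gene next to it, and 10516 bp from the nearer fzr TSS. The second summit lay 501 bp upstream of fzr, in a 3′ UTR, where the neighbour Pp2C1, a phosphatase gene, is also within 2 kb. It had pooled signal 150.6 and ranks of 4259 and 2597 in replicates 1 and 2.

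For dap (2R 9712321 to 9716256, plus strand) the best pooled region was 522 bp upstream of the TSS, at 9711579 to 9712018, with signal 104.8 and rank 5503. It had the highest −log10 q-value of the pooled list, which 7005 regions share. Replicate 1 placed this region at rank 7016 (signal 53.03). In replicate 2 the best region, with its summit 665 bp upstream, had rank 3999 (signal 61.1), within the strongest 4447. Of all genes, 28.9% had a pooled region at least as strong as that at dap, and its nearest IDR summit was 20533 bp away.

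E2f1 held more summits than any other member, and Rbf, which restrains E2f proteins, held none. E2f1 (3R 21620304 to 21660871, minus strand) held 12 summits over 44057 bp, a number reached by 16 of all genes, the highest being 21. Of these 12, 10 were in its introns, with pooled signal from 119.7 to 318.4. The strongest, 21651010 to 21651449, had rank 827 and was 9202 bp from the nearest E2f1 TSS. It ranked 615 in replicate 1 (signal 211.0) and 1457 in replicate 2 (signal 107.4). The intronic region next in signal, 21641493 to 21641932, had 281.9, and its ranks of 1031 and 1309 were closer. The region at 21634802 to 21635044 had 253.4 and ranks of 1384 and 1178. The other 2 of the 12 summits were at promoters of neighbours. The stronger was 346 bp from the TSS of Archease (pooled signal 170.8, ranks 5172 and 1561 in replicates 1 and 2). The weaker was 467 bp from that of InR, the insulin receptor gene (pooled signal 149.2, ranks 3254 and 1988). The remaining 7 intronic summits had pooled signal of 213.1, 198.0, 154.5, 131.5, 124.0, 121.0 and 119.7, and 2 of them, at 21635094 and 21630858, belong to regions that overlap a stronger one. The summit with 124.0 ranked 9584 in replicate 1 and 2728 in replicate 2, and that with 119.7 ranked 3027 and 10049. No E2f1 summit was within 500 bp of any of its 5 annotated TSSs.

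Rbf (X 797090 to 801479, minus strand) had no IDR summit within 17496 bp. Its strongest pooled region, past the 3′ end in the 3′ UTR of a neighbour, had signal 65.7 and rank 10970, and its best ranks were 15985 in replicate 1 and 8005 in replicate 2. A region 212 bp from the Rbf TSS had signal 60.5 and rank 12228. At that place replicate 1 had a region of rank 20277, with the same summit, and in replicate 2 the best region lay there, with its summit 286 bp from the TSS. Of all genes, 44.0% had a pooled region at least as strong as the best at Rbf.

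The replicates were compared over the 25 regions by their ranks. Each region overlapped a region of both replicate lists by at least 1 bp. The pooled list combines these replicates, and each replicate list holds 30000 regions, background among them. Such an overlap is thus easily met and does not by itself show that replicates are alike. In replicate 1 the matched ranks ran from 313 to 9584 with a median of 1831, and in replicate 2 from 298 to 10049 with a median of 1761. Of the 25, 23 were among the strongest 4447 of replicate 1, 22 among those of replicate 2 and 20 (80%) among both. Over all IDR regions 87.9% were among the strongest of replicate 1, 85.6% among those of replicate 2 and 74.8% among both. Each match was the strongest overlapping region, so a weaker summit could take the rank of a stronger neighbour. By that match 5 missed in a replicate. They were the weaker summits already named at CycE and stg and 3 at E2f1 (pooled signal 170.8, 124.0 and 119.7). No gene's strongest region was among them. For the trbl summit at 20398653, the replicate regions with the nearest summits, at 20398658 and 20398688, ranked 8262 and 4586. Both lie outside the strongest 4447, so the 80% is higher than a match by nearest summit would give. With the strongest regions of replicate 1 in place of the IDR list the same 6 genes were bound, where the share of all genes was 24.7%. With those of replicate 2 dap was added, making 7, where the share of all genes was 26.0%. The lists of both replicates were derived with 1 further file in common, per the file records, and what that file holds is not described; of the strongest 4447 regions of replicate 2, 13 are mitochondrial.

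**Figure D2:**
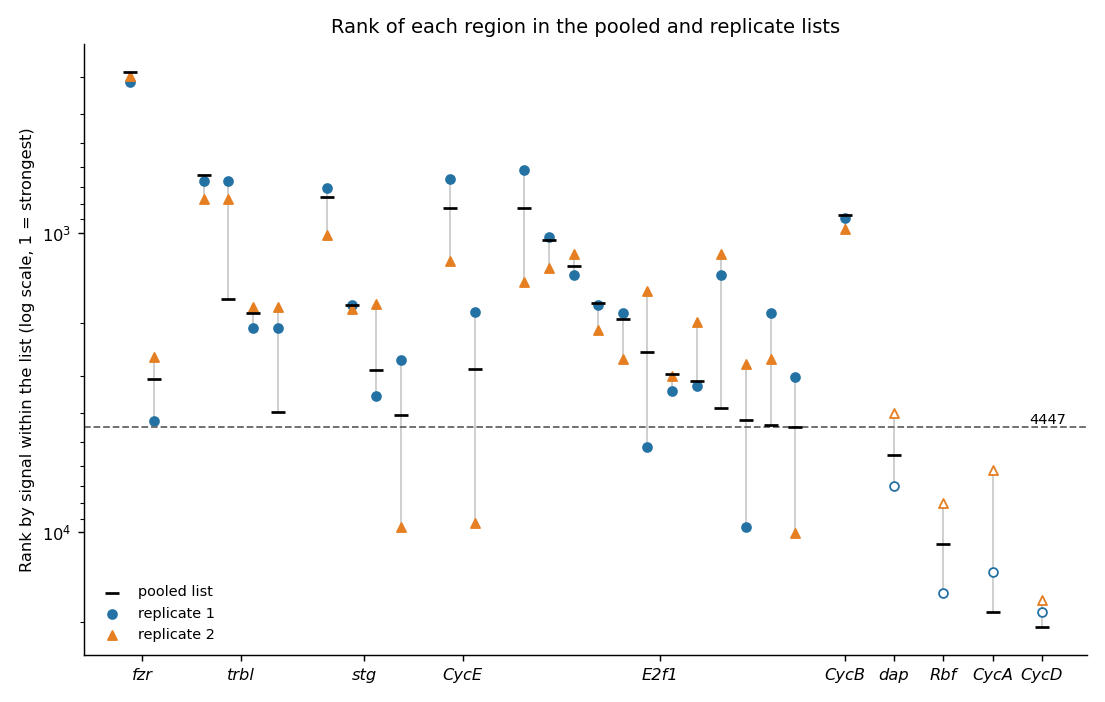
Rank by signal (log scale, strongest at the top) in the pooled list, replicate 1 and replicate 2 for each of the 25 IDR regions, grouped by gene; open symbols for dap, Rbf, CycA and CycD give the best rank in each list, which need not be the same region. The dashed line is rank 4447, the end of the IDR list. Replicate ranks are those of the strongest overlapping region, and by these 5 of the 25 regions have a replicate below the line.

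Most of the members' summits were in introns, and most of these were at E2f1. Of the 25 summits, 17 (68%) were in introns, against 43.0% of all IDR summits, and 6 (24%) were at a promoter, against 36.9%. These shares are not like for like, because only summits in a member or within 2 kb of it could be counted. Intergenic summits were 4% of the members' summits and 18.5% of all IDR summits, so the higher intron share follows in part from the rule. E2f1 supplied 10 of the 17, and without it 7 of 13 summits (53.8%) were intronic. Each of the 6 promoter summits was nearest to the TSS of a gene other than the member. By gene, 4 of the 10 members had an IDR summit in the gene body (CycE, stg, E2f1 and trbl), against 11.6% of all genes, and 1 had a summit within 500 bp of an own TSS, against 12.1%. The last count depends on where the limit falls, since the second fzr summit was 501 bp from an fzr TSS. Counting each summit only for the gene of the nearest TSS kept all 6 bound members and 19 of the 25 summits, where 17.2% of all genes were bound. The 9 summits that also lay within 2 kb of another gene were those at CycB and fzr, the 4 at stg and the outer pair at E2f1, and which gene any of these belongs to cannot be told from position, except that 1 of the stg summits is inside stg.

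Several summits at 1 gene were found at E2f1, stg and trbl. Of the 10 members, 3 had 4 or more IDR summits, against 2.08% of all genes, and with overlapping regions merged 2 did (E2f1 with 10 and stg with 4), against 1.76%. The count at stg depends on its neighbours: 1 of its 4 summits was in the gene body, and 1 by nearest TSS. At trbl the 4 summits became 2 on merging. All 10 members had at least 1 region of the pooled relaxed list, against 59.8% of all genes. E2f1 had 54 such regions, fzr 15 and trbl 9, and the other 7 members 1 to 6 each. The numbers were alike in the replicates, with 50 and 54 at E2f1, 12 and 12 at fzr, and 9 and 7 at trbl. Ranked by their strongest pooled region among all genes, fzr was in place 430, trbl 795, stg 903, CycE 972, E2f1 973 and CycB 1016. All 6 thus lay among the strongest 7.29% of genes. The IDR list is the strongest part of the pooled list, so a high place follows in part from being bound. For the same reason a gene that was not bound must lie lower than every bound gene. The members that were not bound had dap in place 4029, Rbf 6130, CycA 7506 and CycD 7759.

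Longer genes were bound more often, and the members were longer than most genes. With all genes divided by length into 10 classes of equal size, the bound share rose from 10.9% in the shortest class to 53.8% in the longest, and the median length of the members was 4856 bp against 2166 bp over all genes. CycE and E2f1 were in the longest class. The next, of which 39.9% of genes were bound, held fzr and CycA, and the one after that, with 32.1% bound, held trbl and Rbf. The other 4, stg, CycB, CycD and dap, were in the class of which 23.9% were bound. The mean of these shares over the 10 members was 34.7%, against the 60% of members bound, and the members were not chosen blind to these data. In the longest class 1.15% of genes had as many summits as E2f1 or more and 37.5% as many as CycE or more.

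**Figure D3:**
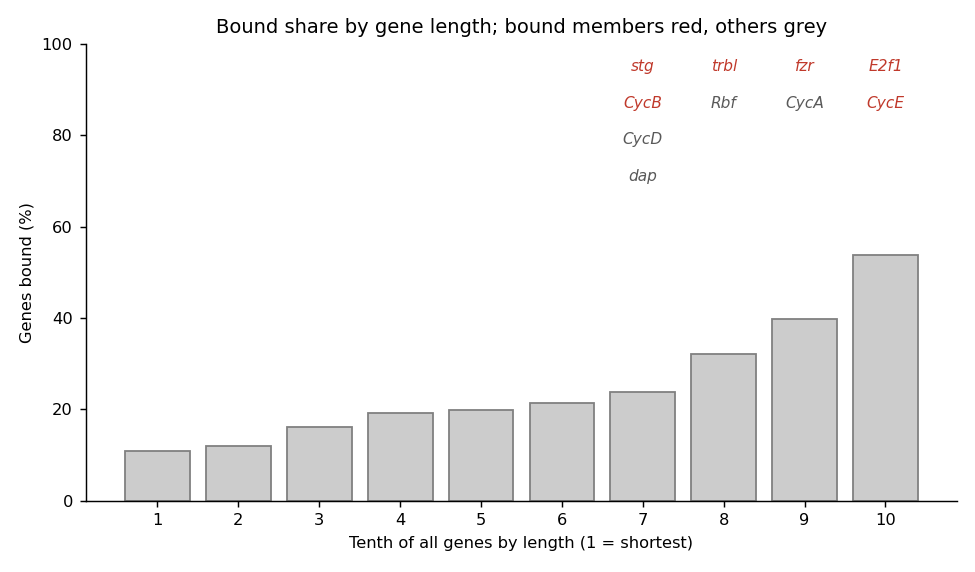
Bars give the percent of genes bound in each of 10 classes of all genes by length. Member names stand above the bar of their own class, bound members in red and the others in grey, and the height of a name has no meaning; the bars rise from 10.9 to 53.8% and the members lie in the upper 4 classes.

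Sequence was described by the presence of 8 words, on either strand, within 100 bp of each of the 25 summits, beside the same share over all 4447 IDR windows. TAATTA, the core word of many homeodomain proteins and its own reverse complement, was in 6 windows (24%), against 13.6% of all windows. These were 3 of the 4 trbl windows, 2 at E2f1 and 1 at CycE. CAATTA, a related homeodomain word that shares the letters AATTA with it, was in 5 windows (20%) against 15.9%. GAGAGA, which the GAGA factor binds, was in 4 (16%) against 16.3%, 3 of them at E2f1 and 1 at fzr. ACACTG was in 5 (20%) against 14.6%. ATCGAT, its own reverse complement, was in 2 (8%) against 4.45%, at stg and E2f1, and CACGTG, likewise palindromic, in 1 (4%) against 1.84%, at stg. The E2F words GCGCGAAA, present in 1.03% of all windows, and GCGGGAAA, present in 0.697%, were in 0 of the 25. Were the windows independent, this would allow a share of up to 12%, but 12 of them lay at E2f1. Beside shares this low, 0 of 25 cannot show a difference. The median content of G and C was 37.3% at the members' summits and over the whole list, and no share was corrected for it. A word is a run of letters and does not show that a protein binds there.

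The wider pathway was described with 6 lists of other cell cycle genes, of which 88 of 89 symbols were matched. Together 27 of the 88 (30.7%) were bound, near the 24.9% of all genes, and the mean share of their length classes was 24.6%. Among other E2F, Rb and dREAM genes (the complex that holds Rbf and Myb proteins) 6 of 9 were bound (66.7%, against 24.9% of all genes). The genes lin-52, a dREAM subunit gene (signal 531.8), Dp, the partner of E2f proteins (410.4), E2f2 (369.3) and mip40 (221.8) led, followed by mip130 and Rbf2. Of these 6, Dp alone was the gene of the nearest TSS, so that by nearest TSS 1 of the 9 was bound, where the share of all genes was 17.2%, and 2 of the 9 had a summit within 500 bp of an own TSS. Among other cyclins and Cdks 5 of 11 were bound (45.5%, against 24.9% of all genes). The highest were CycG (166.5), Cdk4, the kinase partner of CycD (144.3), CycH (141.7) and CycY (136.3), all below the median signal of the IDR list, 182.7. Among ubiquitin ligase genes 6 of 21 were bound (28.6%, near the 24.9% of all genes). They were led by SkpA (434.5), which encodes an SCF subunit, and the APC/C genes APC7 (250.6), Cdc16 (181.6) and Cdc27 (178.2).

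DNA replication genes were bound in 6 of 20 cases (30.0%, near the 24.9% of all genes). They were led by chif, which encodes the partner of the Cdc7 kinase (670.7), Cdc7 itself (278.5), PCNA, the sliding clamp gene (201.9), and Mcm3, a helicase subunit gene (178.3). Of the checkpoint genes 3 of 16 were bound (18.75%, below the share of all genes). They were grp, the Chk1 kinase gene, with 5 summits (highest signal 728.3), rod, a kinetochore protein gene (639.3), and p53 (240.0). Of the genes for Cdk phosphorylation and mitotic kinases 1 of 11 was bound (9.09%, also below it), Incenp, which encodes a partner of the Aurora B kinase (141.0). Many of these summits were nearest to the TSS of another gene. PCNA's was 1 bp from the TSS of RpS18, a ribosomal protein gene, that of Rbf2 6 bp from CG32856, and that of CycH 5 bp from CG7407. The strongest of grp was 370 bp from CG31807, that of rod 131 bp from CG1635, and that of SkpA 197 bp from Hmt4-20. Those of chif and Cdc7 were nearest to their own TSS. By nearest TSS 8 of the 88 were bound (9.09%, against 17.2% of all genes), and by a summit within 500 bp of an own TSS also 8 (9.09%, against 12.1%). Among the 10 regulators the same counts were 6 and 1, and the difference was not tested.

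**Figure D4:**
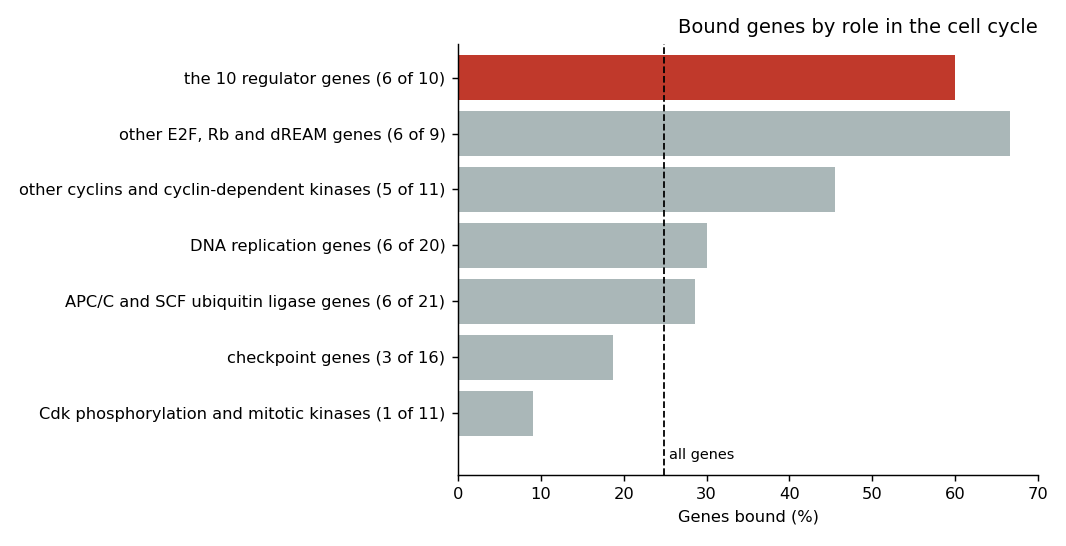
Percent of genes bound in the 10 regulator genes (red) and in 6 lists of other cell cycle genes (grey), with the numbers of bound and matched genes in the labels. The dashed line is the share of all genes, 24.9%; by this 2 kb rule the 10 regulators and the E2F, Rb and dREAM list lie farthest above it, though by nearest TSS 1 of 9 in that list was bound, and the Cdk phosphorylation and mitotic kinase list, with 9.09%, below it.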

How the data were processed

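ChIP-seq regions on dm6 were taken from 4 lists: a relaxed list of 30000 regions for each of 2 replicates and for both combined (the pooled list), and the IDR list of 4447, which was found to be the strongest part of the pooled list. Per the deposited file records, the relaxed lists also hold background. No source used here names the aligner, the peak caller or the IDR threshold. The deposited signal values, written by the authors on an unstated scale, ranked regions within a list; the deposited q-value on the −log10 scale is tied at its top value. The lists hold no read numbers, so depth is unknown and no interval on signal can be given. Lists on dm3 were not used.

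Summits were assigned to genes of Ensembl release 115 (BDGP release 6), in 1-based coordinates; assignment was tested on simulated summits. A replicate match is the strongest region overlapping by 1 bp or more. Locations were taken in the order promoter (500 bp), coding exon, UTR, intron, intergenic. All members were named; of each pathway list at most 4 genes are given with values, by signal, and any further bound E2F, Rb and dREAM genes by name only. The members and lists were chosen with earlier results of these data known. Python 3.11.15, numpy 2.4.6, pandas 2.3.3 and matplotlib 3.10.9 were used. Alternatives changed the window, assignment, overlap, threshold, replicate and word window.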

Additional observations from a re-analysis of the deposited data

How the results depend on the processing

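Of 41 alternative values of the main counts, 28 stayed within 1.5 times the main value. Counting summits in the gene body alone left 9 pathway genes and 11.59% of all genes bound. Counting only those within 500 bp of an own TSS left 1 member with 1 summit, 8 pathway genes and 12.1% of all genes, and nearest TSS 8 pathway genes. The upper 2223 regions of the IDR list left 13 summits at members, 14 pathway genes and 15.12% of all genes, with 6 members still bound; pooled ranks 1 to 10000 gave 40 summits, 49 pathway genes and 42.22%. The smaller or larger counts follow in part from fewer or more regions by construction; no other cause was tested. Members bound were 6 without replicate 2 and 7 without replicate 1. At single genes 21 of 100 values moved by over 1.5 times or to or from 0, 17 of them down, and for words 7 of 16. Counts of 0 that stayed at 0, as at CycD, are among the unmoved values, so these totals say little about stability. Word counts change with the window by construction: TAATTA was in 13.6% of all IDR windows, 7.35% with 50 bp on each side and 21.2% with 200 bp. The merged count of genes with 4 or more regions was chosen after seeing the data. No paired analysis was possible because both replicates belong to 1 group. Unknown depth and the lack of an analysed control limit every statement on signal.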
